A study of Mus musculus with 2 samples.

Results

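Foxp3 and 9 genes of the Ikaros, Runx and Foxo families whose products act with it or on it were followed in induced regulatory T (Treg) cells. The 10 genes, Foxp3, Ikzf1, Ikzf2, Ikzf3, Ikzf4, Runx1, Runx3, Cbfb, Foxo1 and Foxo3, were taken by symbol from 23282 rows, and each had a row. The rule used no measured value, but the genes were proposed with earlier results of these data known. Naïve CD4+ T cells from spleens of wild-type female C57BL/6 mice were stimulated through CD3 and CD28 with TGF-β1 and IL-2, while antibodies blocked IFN-γ and IL-4, for 1 day. The vehicle control (Ctrl) received DMSO, and the other culture received 10 μM Tubastatin A (TSA), an inhibitor of the cytoplasmic deacetylase HDAC6. Each culture gave 1 QuantSeq library, and there was no replicate against which any difference below could be checked.

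Foxp3 is the forkhead transcription factor that defines Treg cells, and during induction it is switched on by T cell receptor, TGF-β and IL-2 signals acting at its promoter and intronic enhancers. Foxo1 and Foxo3 are forkhead factors that bind the Foxp3 locus and leave the nucleus when Akt phosphorylates them. Runx1 and Runx3 bind DNA together with Cbfb, which does not itself bind DNA, and they help to keep Foxp3 on. The Ikaros family of zinc finger factors comprises Ikaros (Ikzf1), Helios (Ikzf2), Aiolos (Ikzf3), Eos (Ikzf4) and Pegasus (Ikzf5). Eos is a partner of the Foxp3 protein in gene silencing, and Helios is found in many Treg cells.

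The libraries held 10846171 (Ctrl) and 10432643 (TSA) reads on genes. QuantSeq reads the end of a polyadenylated transcript next to its tail, so reads were scaled to the library total (CPM, reads per 1000000 reads on genes) and not to length. A gene was tested when it had at least 10 reads in at least 1 library, which 12164 genes and 9 of the 10 members did. Foxo3, with 3 and 1 reads, was not tested. A change is the deposited log2 TSA value minus the deposited log2 Ctrl value, each with 1 normalized count added, and a fold is TSA over Ctrl on that scale. The 95% intervals are exact Poisson intervals for levels and exact Clopper-Pearson intervals for changes, folds and shares. They cover counting error only, and they compare these libraries and not the treatments. The floor of 3 reads was 0.277 CPM in Ctrl and 0.288 CPM in TSA.

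The T cell markers (Cd3e, Cd3d, Cd3g, Cd4, Thy1, Cd5, Lck, Cd28) were all above the floor in both libraries and summed to 1719 CPM in Ctrl and 1958 CPM in TSA. The markers of B cells summed to 4.24 and 7.57 CPM, with Pax5 at 0, those of CD8 T cells to 7.38 and 8.34 CPM, and those of myeloid cells to 9.04 and 7.19 CPM, with S100a9 at 0. NK cell markers summed to 7.10 and 7.96 CPM, with Klrb1c at 0, and erythroid markers to 3.96 and 5.56 CPM, with Hba-a2 at 0. Of these lists, 2 and 4 of 6 B cell, 2 and 2 of 2 CD8 T cell, 7 and 4 of 9 myeloid, 2 and 2 of 5 NK cell and 3 and 4 of 6 erythroid markers were above the floor in Ctrl and TSA. Other cell types were thus represented by few reads, and their part in the results was not tested. The libraries are bulk RNA, in which fewer Foxp3-expressing cells and less Foxp3 RNA per cell cannot be told apart.

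The sequences that locate the Foxp3 measurement are the primers and probe with which the study followed Foxp3 by qRT-PCR. They are shown because their target lies far from the transcript end that QuantSeq reads. They read 5′ to 3′ as follows, in lower case because no position within them is marked.
Forward primer: cccaggaaagacagcaacctt
Reverse primer: ttctcacaaccaggccacttg
Probe: atcctacccactgctggcaaatggagtc
Matched to a GENCODE M21 transcript of Foxp3 with 3763 bases (GRCm38), they span an amplicon of 89 bases in exons 6 and 7 of 13, on chromosome X, plus strand. The forward primer crosses the junction of both exons, and its ends lie at positions 7587861 and 7587979. The probe lies at 7587997 to 7588024, and the reverse primer at 7588027 to 7588047. The amplicon ends 2867 bases before the end of the transcript, and 9 of 10 annotated Foxp3 transcripts hold it.

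The Foxp3 gene lies at 7573644 to 7595245 of chromosome X on the plus strand (GRCm38, GENCODE M21). An upstream window of it is printed because Foxp3 was the member with the lowest change, and one of Runx3 because it alone among the members' windows held Runx and Ikaros motifs. RefSeq windows of the 250 bases before a start site (GRCm38.p6) were available for 7 of the 10 members, 11 windows in all. Ikzf2, Ikzf3 and Ikzf4 had none. Foxp3 and Runx3 each had 2 windows, of which 1 is printed, and the other window of each held none of the motifs searched. Capitals mark a TATA box match (TATAAA) in Foxp3, and in Runx3 an Ikaros core (TGGGAA) and Runx cores on the other strand (ACCACA).
Foxp3, chrX:7579426-7579675, plus strand: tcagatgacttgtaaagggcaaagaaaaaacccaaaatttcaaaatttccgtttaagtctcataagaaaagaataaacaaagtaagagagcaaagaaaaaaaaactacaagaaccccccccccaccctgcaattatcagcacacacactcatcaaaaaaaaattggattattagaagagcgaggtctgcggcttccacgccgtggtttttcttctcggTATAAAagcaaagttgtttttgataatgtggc
Runx3, chr4:135120395-135120644, plus strand: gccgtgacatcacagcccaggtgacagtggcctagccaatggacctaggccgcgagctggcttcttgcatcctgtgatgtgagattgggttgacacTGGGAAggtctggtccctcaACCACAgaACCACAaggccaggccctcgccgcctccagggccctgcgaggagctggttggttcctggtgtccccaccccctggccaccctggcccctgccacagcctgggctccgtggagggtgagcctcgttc
Each motif was searched on both strands, and none overlapped another. In the printed Foxp3 window the first base of the TATA match lay 32 bases before the start site, and the window held no Runx core (TGTGGT), no forkhead core (TGTTTAC) and no Ikaros core. The printed Runx3 window held 2 Runx cores, starting 134 and 126 bases before the start site, and 1 Ikaros core starting 154 bases before it. Over all 32851 RefSeq windows of the same length, 14.0% held the Runx core, 3.17% the forkhead core, 21.6% the Ikaros core and 12.4% the TATA match. The search for the TATA match was added after these windows were seen. The printed Foxp3 window had a GC content of 37.6% and 6 CpG dinucleotides, the lowest GC content of the 11 windows, and the printed Runx3 window had 65.2% and 8. Each motif was searched in 1 form only, and variants of it, including those of the forkhead core, were not searched. These matches describe the letters only and say nothing about binding.

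Foxp3 was the member with the lowest change. It had 1633 reads, or 151 CPM (143 to 158), in the Ctrl library, and 965 reads, or 92.5 CPM (86.8 to 98.5), in the TSA library, so that the intervals of the levels were apart. The change was -0.77 on the log2 scale (-0.89 to -0.66), a fold of 0.586 (0.540 to 0.634). In the order of all genes with reads, Foxp3 stood at place 1304 of 13694 in Ctrl and at place 2178 of 14994 in TSA. Among the 8188 genes whose normalized counts averaged 100 or more, which leaves out the widest counting error, 218 had a lower change than Foxp3. It passed 1.5-fold, the only member lower by that much, and did not pass 2-fold, the threshold the study used. The study nevertheless names Foxp3 among the transcripts it called lower at more than 2-fold in its RNA-seq. The deposited values, with a fold of 0.586, do not reach that threshold, and why they differ was not tested.

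The Foxp3 reads carry a limit that the annotation shows. The end of Foxp3 overlaps the end of Ccdc22, a gene on the minus strand at 7593809 to 7605517 of chromosome X whose product acts in endosomal sorting, by 1437 bases. Whether reads were counted by strand is not given in the sources used here. Ccdc22, named after its values were seen, had 1201 reads in Ctrl and 735 in TSA, a change of -0.72 (-0.86 to -0.59), close to that of Foxp3. Foxp3 thus had 1.36 times the reads of Ccdc22 in Ctrl and 1.31 times in TSA. Without strand, the reads of both genes cannot be told apart. If all reads counted for Ccdc22 had also been counted for Foxp3, 432 reads in Ctrl and 230 in TSA would be left to Foxp3 alone, a change of -0.92 (-1.16 to -0.69). This is 1 assumed case, in which the reads taken off could include those of Foxp3 itself, and the reads the genes share were not measured.

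The same was looked at over all pairs of protein-coding genes that run towards each other, with the normalized counts of both genes averaging 100 or more. In 401 pairs with overlapping ends, the changes of the paired genes had a Pearson correlation of 0.56, and the median absolute difference between them was 0.14 on the log2 scale. In 239 pairs with a gap of up to 2000 bases, the correlation was 0.12 and the median absolute difference 0.30. Read counts equal within 5% in the Ctrl library were found in 33 overlapping pairs (8.23%) and in 8 pairs with a gap (3.35%). These are descriptions across gene pairs of the same libraries, not replicates, and why overlapping pairs lay closer was not tested. No other member had a gene with a row in the tables on the opposite strand at its 3′ end. The antisense gene Gm29114, which has no row, covers that of Ikzf2.

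**Figure D1:**
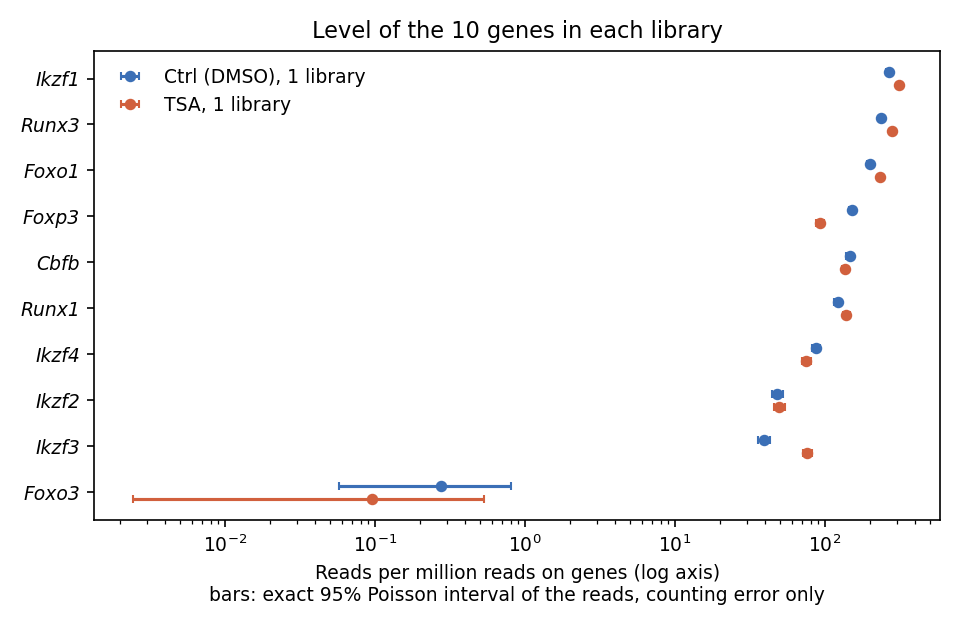
Level of each of the 10 genes in the Ctrl library (blue) and the TSA library (orange), in CPM on a log axis, with exact 95% Poisson intervals as bars. Foxp3 moves from 151 to 92.5 CPM and Ikzf3 from 39.2 to 76.2 CPM, while Foxo3 lies at or below the floor in both libraries.

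Among the Ikaros family genes, Ikzf3 stood out. Ikzf3 (chromosome 11, 98464902 to 98546031, minus strand) encodes Aiolos, a repressor of Il2 in T cells. It had 425 reads, or 39.2 CPM (35.5 to 43.1), in Ctrl and 795 reads, or 76.2 CPM (71.0 to 81.7), in TSA, with intervals apart. The change was 0.89 (0.72 to 1.06), a fold of 1.85 (1.64 to 2.09), the highest of the members, and 175 of the 8188 genes averaging 100 or more had a higher one. Its interval reached past 2-fold, but its change did not.

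Ikzf4 (chromosome 10, 128630843 to 128645991, minus strand), which encodes Eos, had 941 reads, or 86.8 CPM, in Ctrl and 783 reads, or 75.1 CPM, in TSA. The change was -0.28 (-0.42 to -0.14), lower by more than counting error and by less than 1.5-fold. Ikzf1 (chromosome 11, 11685003 to 11772926, plus strand), which encodes Ikaros, the founding member of the family, was the member with the most reads in both libraries. It had 2883 reads, or 266 CPM, in Ctrl and 3251 reads, or 312 CPM, in TSA, and the change was 0.16 (0.09 to 0.23). Ikzf2 (chromosome 1, 69531214 to 69687245, minus strand), which encodes Helios, had 522 reads, or 48.1 CPM, in Ctrl and 517 reads, or 49.6 CPM, in TSA. Its change of -0.03 (-0.21 to 0.15) lay within counting error, and its sign differed between scalings, from -0.03 to 0.06. The Helios and Eos genes, both counted among genes that Foxp3 raises, thus showed a level within counting error and a lower level. Ikzf5, the remaining gene of the family, had 497 reads in Ctrl and 561 in TSA, a change of 0.16 (-0.02 to 0.34), and its 3′ end lies in Pstk on the other strand, with 120 and 97 reads.

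Shares of the family's reads do not depend on the scaling between libraries. Ikzf3 held 8.07% (7.35 to 8.84) of the 5268 reads of Ikzf1 to Ikzf5 in Ctrl and 13.5% (12.6 to 14.4) of the 5907 reads in TSA. Ikzf4 held 17.9% (16.8 to 18.9) in Ctrl and 13.3% (12.4 to 14.1) in TSA. These are the only shares of the Ikaros family whose intervals were apart between the libraries. Ikzf1 held 54.7% (53.4 to 56.1) and 55.0% (53.8 to 56.3), Ikzf2 9.91% (9.11 to 10.7) and 8.75% (8.04 to 9.50), and Ikzf5 9.43% (8.66 to 10.3) and 9.50% (8.76 to 10.3). The Aiolos gene therefore had 0.452 times the reads of the Eos gene in Ctrl and 1.02 times in TSA, and the quotient of both ratios was 2.25 (1.93 to 2.62). Against Ikzf1 the same quotient was 1.66 (1.46 to 1.89) for Ikzf3 and 0.738 (0.662 to 0.823) for Ikzf4, and against Ikzf2 it was 1.89 (1.59 to 2.25) and 0.840 (0.718 to 0.983).

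**Figure D2:**
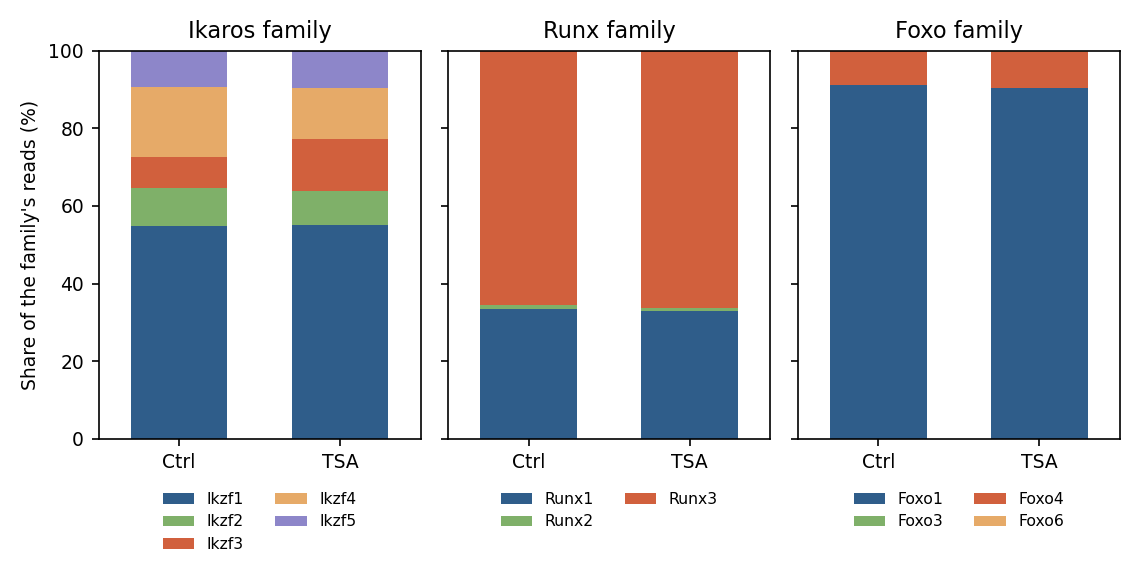
Share (%) of the summed reads of the Ikaros, Runx and Foxo families held by each gene in the Ctrl and TSA libraries, as stacked bars without error. Ikzf3 takes 8.07% of the Ikaros family reads in Ctrl and 13.5% in TSA, while the Runx and Foxo bars keep nearly the same parts.

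Runx1 and Runx3 showed small differences in the same direction. Runx3 (chromosome 4, 135120652 to 135177990, plus strand), a factor of cytotoxic and effector T cells, had 2578 reads, or 238 CPM, in Ctrl and 2912 reads, or 279 CPM, in TSA, a change of 0.16 (0.08 to 0.24). Runx1 (chromosome 16, 92601466 to 92826149, minus strand), a factor of blood stem cells and T cells that binds the Foxp3 protein, had 1314 reads, or 121 CPM, in Ctrl and 1443 reads, or 138 CPM, in TSA, a change of 0.12 (0.01 to 0.23). Both were higher by more than counting error and by far less than 1.5-fold. The ratio of Runx1 to Runx3 reads was 0.510 in Ctrl and 0.496 in TSA, and the interval of the quotient, 0.886 to 1.07, held no change. Runx3 held 65.6% (64.1 to 67.1) of the family's reads in Ctrl and 66.4% (65.0 to 67.8) in TSA, and Runx1 33.4% (32.0 to 34.9) and 32.9% (31.5 to 34.3). Runx2, a factor of bone formation, had 39 and 31 reads, 0.992% and 0.707% of the family, with overlapping intervals.

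Cbfb (chromosome 8, 105170674 to 105217989, plus strand) encodes the common partner subunit of the Runx proteins, and it differed in the other direction. It had 1582 reads, or 146 CPM, in Ctrl and 1419 reads, or 136 CPM, in TSA, a change of -0.17 (-0.28 to -0.07). When the libraries were scaled by their totals the change was -0.10, and its interval, -0.21 to 0.00, held no change. Relative to the summed Runx reads, which no scaling between libraries touches, Cbfb stood at 0.402 in Ctrl and 0.324 in TSA, a quotient of 0.804 (0.739 to 0.875).

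Foxo1 (chromosome 3, 52268336 to 52353221, plus strand), the main Foxo factor of T cells, had 2158 reads, or 199 CPM, in Ctrl and 2430 reads, or 233 CPM, in TSA. The change was 0.16 (0.07 to 0.24), higher by more than counting error and by less than 1.5-fold. Foxo3 (chromosome 10, 42181841 to 42276755, minus strand) had 3 reads, or 0.277 CPM (0.0570 to 0.808), in Ctrl and 1 read, or 0.0959 CPM (0.00243 to 0.534), in TSA. Both values were at or under the floor, so no fold is given. Foxo1 held 91.1% (89.8 to 92.2) of the Foxo reads in Ctrl and 90.3% (89.2 to 91.4) in TSA. Foxo4 had 206 and 247 reads, a change of 0.25 (-0.03 to 0.52). Foxo6 had 3 and 12 reads, a fold of 3.22 with an interval of 1.07 to 21.9, the one other family gene past 2-fold. Of the 7 other family genes 6 were tested, and 2 had an interval above and 1 below no change, 33.3% and 16.7%, beside 28.1% and 28% of all genes tested. The one past 2-fold was 16.7%, beside 11.5% of all genes. Foxo6 reached 10 reads in the TSA library alone, and of the 5 other family genes with 10 reads in both libraries none passed 2-fold. Of the closest relatives of Foxp3, Foxp1, which keeps naïve T cells quiescent, was the most abundant gene of all 4 families, with 10056 reads, or 927 CPM, in Ctrl and 11206 reads, or 1074 CPM, in TSA, a change of 0.14 (0.10 to 0.18). Foxp4 had 704 and 561 reads, a change of -0.34 (-0.50 to -0.18), and Foxp2 had 0 and 2 reads.

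In the Ctrl library the order of levels was Ikzf1, Runx3, Foxo1, Foxp3, Cbfb, Runx1, Ikzf4, Ikzf2, Ikzf3 and Foxo3, and only the neighbours Foxp3 and Cbfb had overlapping intervals. In the TSA library it was Ikzf1, Runx3, Foxo1, Runx1, Cbfb, Foxp3, Ikzf3, Ikzf4, Ikzf2 and Foxo3, with overlapping intervals for Runx1 and Cbfb and for Ikzf3 and Ikzf4. Foxp3 thus stood 4th in Ctrl and 6th in TSA, and Ikzf3 9th and 7th. Foxp3 reads were 3.84 times those of Ikzf3 in Ctrl and 1.21 times in TSA, a quotient of 0.316 (0.273 to 0.365). The quotient for Foxp3 lay between 0.523 and 0.710 against the 7 other members tested, lowest against Runx3 (0.475 to 0.576) and highest against Ikzf4 (0.626 to 0.805). These ratios do not depend on the scaling between libraries, but the strand limit of the Foxp3 reads applies to them and to its place in the order. With the reads counted for Ccdc22 taken off, Foxp3 would stand 8th in Ctrl and 9th in TSA, with 1.02 and 0.289 times the reads of Ikzf3. The quotient would then be 0.285 against Ikzf3 and 0.471 to 0.640 against the other members tested.

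No member passed 2-fold in either direction, where 11.5% of the 12164 genes tested were higher and 3.15% lower by that much, and 1.48% and 1.31% of those averaging 100 or more normalized counts. Of the 9 members tested, 1 passed 1.5-fold higher (Ikzf3), beside 18.7% of all genes tested and 6.05% of those at 100 or more, and 1 lower (Foxp3), beside 8.34% and 5.9%. An interval above no change was found for 5 members (Ikzf1, Ikzf3, Runx1, Runx3, Foxo1), beside 28.1% of all genes tested and 23.4% at 100 or more. An interval below no change was found for 3 (Foxp3, Ikzf4, Cbfb), beside 28% and 36.5%. All 9 members tested averaged above 100, so the second background is the nearer one. The median change of the 9 members was 0.12, beside 0.02 for all genes tested and -0.06 for those at 100 or more. With 9 genes, these counts describe the members and set them apart from no other genes. In the plane of both deposited log2 values, the genes nearest to Foxp3 were Mpdu1 (1651 and 969 reads), Srebf2 (1579 and 958), Zrsr2 (1592 and 1001), Npm3-ps1 (1553 and 998) and Eea1 (1654 and 909), at distances of 0.017 to 0.088. That likeness rests on 2 libraries.

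**Figure D3:**
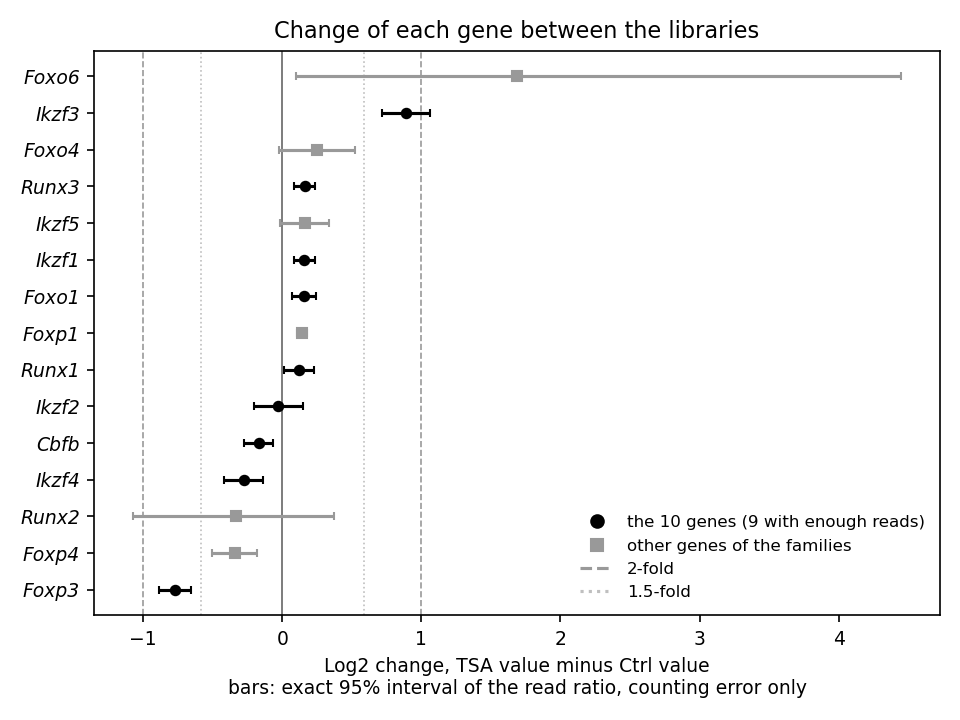
Log2 change (TSA value minus Ctrl value) of the 9 members with enough reads (black circles) and of 6 other genes of the same families (grey squares), with exact 95% intervals of the read ratio as bars. Foxp3, at -0.77, and Ikzf3, at 0.89, lie beyond the dotted 1.5-fold lines, and of the genes shown Foxo6 alone lies beyond a dashed 2-fold line.

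**Figure D4:**
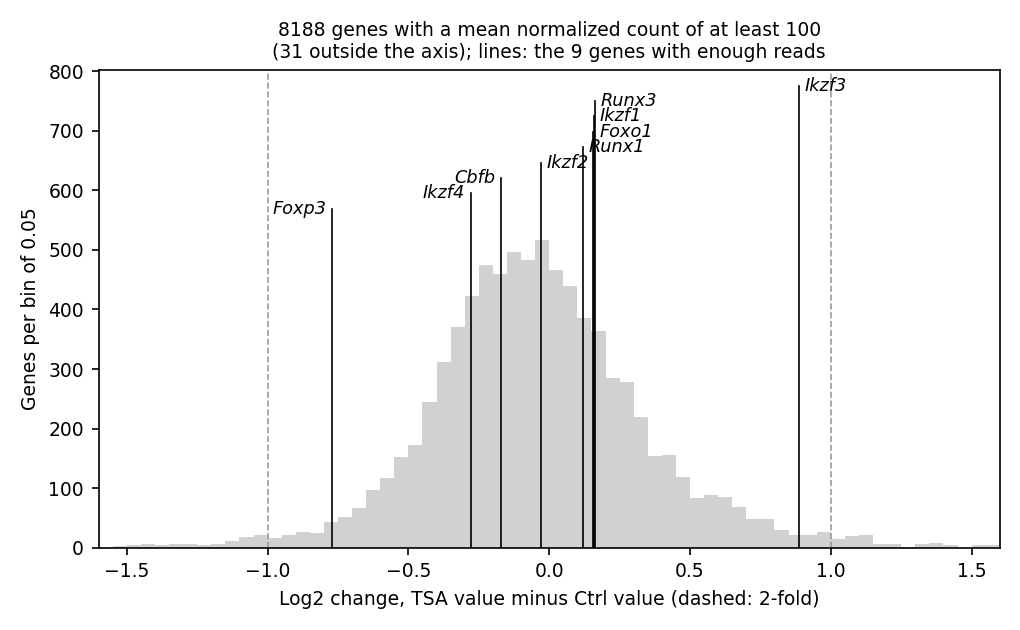
Distribution of the log2 change over the 8188 genes averaging 100 or more normalized counts (grey, genes per bin, 31 outside the axis), with a line for each of the 9 members tested. Most members lie within the body of the distribution, with Foxp3 in its lower tail, where 218 genes lie below it, and Ikzf3 in its upper tail, where 175 lie above it.

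The genes known to be raised or repressed by Foxp3 were read beside it. Both lists were made with results of the study known. They hold Il2ra, Prdm1, Nt5e, Crem and Zeb2, which the study reported as changed with TSA by qRT-PCR. Il17a and Il4, also listed, were reported by the study as higher in its RNA-seq. The counts of both lists are therefore not independent of the study. A gene named here with fewer than 50 reads in both libraries together was named after its values were seen. The counts of each list stand beside the same shares over all 12164 genes tested, 11.5% higher and 3.15% lower past 2-fold, and 28.1% above and 28% below no change by the interval. Among genes averaging 100 or more, the 2-fold shares were 1.48% and 1.31%, and the interval shares 23.4% and 36.5%. Of 10909 genes with 10 reads in both libraries, 524 passed 2-fold higher and 223 lower. A gene that reached 10 reads in the TSA library alone could enter only by being higher there, so such genes are named and the count without them is given. Of 18 genes that Foxp3 is known to raise, Ikzf2 and Ikzf4 among them, all were tested, 2 passed 2-fold higher and 2 lower, and 5 had an interval above and 11 below no change. The 2-fold counts were 11.1% each way, beside 11.5% higher and 3.15% lower of all genes, and 1.48% and 1.31% at 100 or more. All 18 genes had 10 reads in both libraries, a set in which 524 of 10909 genes passed higher and 223 lower. At an average of 50 or more, 1 gene of the list passed 2-fold higher and 2 lower. The interval counts were 27.8% above, near the background of 28.1%, and 61.1% below, beside 28%. At 100 or more these backgrounds were 23.4% and 36.5%. The median change of the list was -0.23, beside 0.02 for all genes tested. Lrrc32, which encodes the TGF-β-anchoring surface protein GARP of activated Treg cells, had 269 reads in Ctrl and 68 in TSA, a change of -1.98 (-2.40 to -1.61). Nrp1, a surface receptor that TGF-β also raises, had 576 and 281 reads, a change of -1.05 (-1.26 to -0.84), and Socs2, a brake on cytokine signalling, had 3071 and 1628 reads, a change of -0.93 (-1.02 to -0.84). These genes were lower in the TSA library by as much as Foxp3 or more, and with scaling by library totals 1 gene of the list (Lrrc32) passed 2-fold lower in place of 2. Il2ra, the IL-2 receptor α chain, had 8851 and 7511 reads, a change of -0.25 (-0.30 to -0.21), and Tnfrsf9, whose 3′ end lies in Camta1 on the other strand (120 and 118 reads), had 3071 and 2295 reads, a change of -0.43 (-0.51 to -0.36). Nt5e, the ectonucleotidase CD73, had 407 and 332 reads, a change of -0.31 (-0.52 to -0.10), and Crem, a cAMP-responsive factor, had 304 and 254, a change of -0.27 (-0.52 to -0.03). Prdm1, which encodes Blimp-1, had 52 and 45 reads, a change of -0.22 whose interval, -0.83 to 0.38, held no change.

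Other genes of that list were higher in the TSA library. Entpd1, the ectonucleotidase CD39, had 68 reads in Ctrl and 207 in TSA, a change of 1.58 (1.19 to 2.01), so that the pair of ectonucleotidase genes differed in opposite directions. Izumo1r, the folate receptor 4 gene of Treg cells, had 1996 and 3432 reads, a change of 0.77 (0.69 to 0.85), Gpr83 had 611 and 825, a change of 0.42 (0.27 to 0.57), and the cytokine gene Il10 had 12 and 51, a change of 1.99 (1.15 to 3.12). The list thus did not differ in one direction. Of 10 genes that Foxp3 is known to repress, 2 passed 2-fold higher and none lower, 5 had an interval above and 1 below no change, and the median was 0.29. These were 20% past 2-fold higher, beside 11.5% of all genes, and 50% above and 10% below by the interval, beside 28.1% and 28%. Il4 reached 10 reads in the TSA library alone, and without it 1 of 9 passed 2-fold higher, 4 had an interval above no change, none passed 2-fold at an average of 50 or more, and the median was 0.22. Zeb2, a transcriptional repressor expressed in effector T cells, had 13 and 43 reads, a change of 1.64 (0.79 to 2.73), and Il4 had 1 and 14 reads, a change of 2.89 (1.08 to 9.20). Il17a had 29 and 57 reads, a change of 0.94 (0.29 to 1.66), and Cd40lg, the CD40 ligand, had 238 and 320, a change of 0.41 (0.17 to 0.66). Il2 lay the other way, with 198 and 160 reads, a change of -0.32 (-0.63 to -0.01), and Il7r, with 84 and 109 reads, lay within counting error at 0.36 (-0.06 to 0.79).

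Of 25 factors that act at the Foxp3 locus, 1 passed 2-fold higher and none lower, 10 had an interval above and 8 below no change, and the median was 0.06. The interval counts were 40% above and 32% below, beside 28.1% and 28% of all genes and 23.4% and 36.5% at 100 or more. The 2-fold count was 4%, beside 11.5% of all genes and 1.48% at 100 or more. At an average of 50 or more normalized counts none passed 2-fold. Irf4, a factor of activated T cells, had 6675 reads in Ctrl and 10749 in TSA, a change of 0.67 (0.63 to 0.72), Smad3, which carries the TGF-β signal, 469 and 693, a change of 0.55 (0.38 to 0.72), and Ets1 2758 and 3917, a change of 0.49 (0.42 to 0.56). The demethylating enzymes of the Tet family did not differ in one direction. Tet1 had 20 and 54 reads, a change of 1.38 (0.65 to 2.24), whereas Tet2 had 308 and 206, a change of -0.59 (-0.86 to -0.34). Tet3, the Tet gene with the most reads, named after its values were seen, went with Tet2, at 797 and 689 reads and a change of -0.22 (-0.37 to -0.08). Uhrf1, which guides maintenance methylation of DNA, had 1887 and 1419 reads, a change of -0.43 (-0.53 to -0.33). Batf, with 362 and 270 reads, and Nr4a2, a nuclear receptor induced by the T cell receptor, with 499 and 375, had changes of -0.44 (-0.67 to -0.21) and -0.43 (-0.62 to -0.23).

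Of 17 genes whose products modify or destabilise the Foxp3 protein, 16 were tested, 1 passed 2-fold higher and none lower, 2 had an interval above and 6 below no change, and the median was -0.08. The 37.5% below was near the background of 36.5% at 100 or more (28% of all genes). The 12.5% above stood beside 23.4% at 100 or more (28.1% of all genes). The 6.25% past 2-fold higher, which is 1 gene, stood beside 1.48% at 100 or more (11.5% of all genes). These counts do not set the list apart. Hdac6, the target of Tubastatin A, had 146 reads in Ctrl and 166 in TSA, a change of 0.17 (-0.16 to 0.50), within counting error. Hdac9 was the gene past 2-fold, with 1 and 27 reads, a change of 3.79 with an interval of 2.14 to 10.10. It reached 10 reads in the TSA library alone, and of the 15 genes with 10 reads in both libraries none passed 2-fold, and 1 had an interval above and 6 below no change. Kat5, which encodes the acetyltransferase TIP60, had 252 and 152 reads, a change of -0.74 (-1.04 to -0.45), and its 3′ end lies in Rnaseh2c, with 855 and 934 reads. Cdk2, a cell cycle kinase that phosphorylates Foxp3, had 1135 and 762 reads, a change of -0.59 (-0.72 to -0.46). Stub1, a ubiquitin ligase for Foxp3, had 1294 and 1037 reads, a change of -0.33 (-0.45 to -0.21), and its 3′ end lies in Jmjd8, whose 1466 and 1191 reads gave a change of -0.31. Such an opposite gene with a row lay at the 3′ end of 16 of the 165 genes of the lists and members with an annotation.

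Of 18 corepressor genes whose products act with Ikaros and Eos, 1 passed 2-fold higher and none lower, 4 had an interval above and 11 below no change, and the median was -0.16. The interval counts were 22.2% above and 61.1% below, beside 23.4% and 36.5% of genes at 100 or more and 28.1% and 28% of all genes. The 2-fold count was 5.56%, beside 1.48% at 100 or more and 11.5% of all genes. Ctbp2, the gene past 2-fold, had 11 reads in Ctrl and 29 in TSA, a change of 1.31 (0.34 to 2.53), and at an average of 50 or more none passed. Subunits of the NuRD deacetylase complex differed in both directions. Mta2, with 1879 and 1311 reads, had a change of -0.53 (-0.64 to -0.43), Chd4, its helicase, with 6588 and 5300 reads, -0.33 (-0.38 to -0.28), and Hdac2, with 1766 and 1404 reads, -0.35 (-0.45 to -0.24). Hdac1, by contrast, had 1315 and 1836 reads, a change of 0.47 (0.36 to 0.57), and Mta3 had 97 and 145, a change of 0.56 (0.18 to 0.95). Of the Sin3 complex, Sap30 had 99 and 66 reads, a change of -0.59 (-1.07 to -0.14), and Sin3b 1549 and 1796, a change of 0.20 (0.10 to 0.30).

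Of 11 genes regulated by Ikaros factors, 10 were tested, 2 passed 2-fold higher (Il10 and Hes1) and none lower, 4 had an interval above and 4 below no change, and the median was 0.01. These were 20% past 2-fold, beside 11.5% of all genes, and 40% each way by the interval, beside 28.1% and 28%, or 36.5% below at 100 or more. Hes1 reached 10 reads in the TSA library alone and Ptcra in the Ctrl library alone. Of the 8 genes with 10 reads in both libraries 3 had an interval above and 4 below no change, 1 passed 2-fold, and none did at an average of 50 or more. Hes1, a Notch target, had 6 reads in Ctrl and 43 in TSA, a change of 2.64 (1.59 to 4.35), and Dtx1, another Notch target, 40 and 74, a change of 0.86 (0.30 to 1.47). Notch1 itself had 1271 and 1127 reads, a change of -0.19 (-0.30 to -0.07). Cdk6, a cell cycle kinase, had 84 and 49 reads, a change of -0.78 (-1.33 to -0.27), Myc 1312 and 1170, a change of -0.18 (-0.29 to -0.06), and the survival gene Bcl2 1342 and 1565, a change of 0.21 (0.10 to 0.31). Ifng lay within counting error, with 139 and 163 reads, a change of 0.22 (-0.12 to 0.55).

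Of 12 Runx cofactor genes, 11 were tested, 2 passed 2-fold higher and none lower, 6 had an interval above and 3 below no change, and the median was 0.16. These were 18.2% past 2-fold, beside 11.5% of all genes, and 54.5% above and 27.3% below by the interval, beside 28.1% and 28%. Both genes past 2-fold, Cbfa2t3 with 8 reads in Ctrl and 24 in TSA and Runx1t1 with 0 and 10, reached 10 reads in the TSA library alone. Of the 9 genes with 10 reads in both libraries none passed 2-fold, 4 had an interval above and 3 below no change, and the median was 0.09. A tally of the 5 Tle genes within the list was not planned. Tle2 (0 and 2 reads) was not tested, and the other 4 had an interval above no change, beside 28.1% of all genes and 23.4% at 100 or more. Tle1 had 147 and 208 reads, a change of 0.48 (0.17 to 0.80), Tle4 359 and 495, a change of 0.45 (0.25 to 0.65), and Tle3 687 and 776, a change of 0.16 (0.01 to 0.31). Aes, also called Tle5, had 2282 and 2675 reads, a change of 0.22 (0.13 to 0.30). The 3 genes with an interval below no change followed. The acetyltransferase genes Ep300, with 664 and 553 reads, and Crebbp, with 1741 and 1394, had changes of -0.28 (-0.44 to -0.11) and -0.34 (-0.44 to -0.23), and Prmt1, an arginine methyltransferase that acts on Runx1, had 4910 and 3732, a change of -0.41 (-0.47 to -0.35). Hipk2, a kinase, with 255 and 242 reads and a change of -0.09 (-0.35 to 0.17), and Cbfa2t2, named after its values were seen, with 128 and 138 and a change of 0.09 (-0.26 to 0.45), lay within counting error. Of 11 genes regulated by Runx factors, Foxp3 among them, 10 were tested, 2 passed 2-fold higher and none lower, 3 had an interval above and 1 (Foxp3) below no change, and the median was 0.22. The 30% above stood beside 28.1% of all genes, the 10% below beside 28%, and the 20% past 2-fold beside 11.5%. Without Il4, 2 of 9 had an interval above no change, 1 passed 2-fold higher, and none did at an average of 50 or more. Those past 2-fold were Il4 and Itgae, the integrin gene of tissue-resident T cells, with 17 and 39 reads and a change of 1.14 (0.33 to 2.10). With a pseudocount of 5 in place of 1, 1 gene of the list passed 2-fold higher. Tbx21, which encodes T-bet, had 1974 and 2394 reads, a change of 0.26 (0.18 to 0.35).

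Of 24 regulators of Foxo activity, none passed 2-fold in either direction, 4 had an interval above and 9 below no change, and the median was -0.06. The 37.5% below was near the background of 36.5% at 100 or more (28% of all genes), and the 16.7% above was under that of 23.4%, so these counts do not set the list apart. With scaling by library totals, with or without Rn45s, 1 gene of the list (Pik3ip1) passed 2-fold higher. Of the 7 genes of 14-3-3 proteins, which hold phosphorylated Foxo factors outside the nucleus, 5 had an interval below no change and none above. That tally within the list was not planned, and it stands beside 36.5% below and 23.4% above at 100 or more. The 3 lowest were Ywhae at 10133 reads in Ctrl and 7501 in TSA and a change of -0.45 (-0.49 to -0.40), Ywhaq at 1456 and 1090 and a change of -0.43 (-0.55 to -0.32), and Ywhah at 2552 and 2001 and a change of -0.37 (-0.45 to -0.28). Pik3cd, the PI3K subunit of leukocytes, lay the other way, with 3109 and 3535 reads and a change of 0.17 (0.10 to 0.24), as did Rictor, a subunit of mTORC2, with 354 and 424 and a change of 0.25 (0.04 to 0.45).

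The genes that Foxo factors are known to activate had the highest median of the 11 lists. Of 18 Foxo target genes, all tested, 3 passed 2-fold higher and none lower, 11 had an interval above and none below no change, and the median change was 0.55. These were 16.7% past 2-fold higher, beside 11.5% of all genes, and 61.1% above by the interval, beside 28.1% of all genes and 23.4% at 100 or more. Without Gadd45a, which reached 10 reads in the TSA library alone, 2 of 17 passed 2-fold higher, 11 had an interval above no change, and the median was 0.47. Of all genes with 10 reads in both libraries, 524 of 10909 passed 2-fold higher. Klf2, a factor of quiescent and circulating T cells, had 1158 reads in Ctrl and 2436 in TSA, a change of 1.06 (0.96 to 1.16). Sesn1, a stress-induced inhibitor of mTORC1, had 60 and 125 reads, a change of 1.03 (0.59 to 1.51), and Gadd45a, the third gene past 2-fold, had 5 and 13, a change of 1.21 whose interval, -0.22 to 3.21, held no change. S1pr1, the receptor for exit from lymphoid tissue, had 163 and 294 reads, a change of 0.83 (0.56 to 1.12), and Pik3ip1, an inhibitor of PI3K, 19 and 38, a change of 0.95 (0.16 to 1.86). With a pseudocount of 5 in place of 1, 1 Foxo target gene (Klf2) passed 2-fold. Ccng2 did not differ beyond counting error, with 114 and 115 reads and an interval of -0.39 to 0.38. The Foxo1 gene itself differed by 0.16, and RNA levels do not show where the Foxo1 protein lay in the cell. Foxo activity itself was not measured in these libraries.

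**Figure D5:**
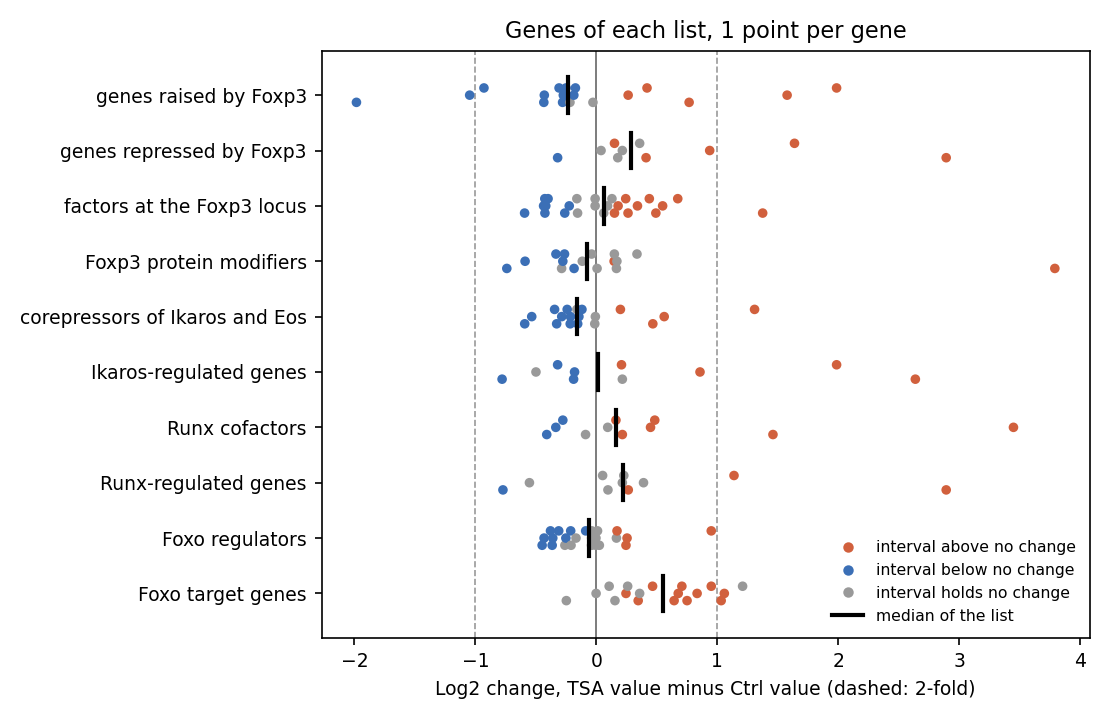
Log2 change (TSA value minus Ctrl value) of each tested gene in 10 lists of genes related to Foxp3 and its partners, 1 point per gene, coloured by whether the 95% interval lies above, below or across no change, with the median as a black bar. The Foxo target genes have the highest median, 0.55, and the genes raised by Foxp3 the lowest, -0.23, with members on both sides.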

How the data were processed

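Total RNA of 1 Ctrl and 1 TSA culture was made into QuantSeq libraries and read on a NextSeq instrument from one end over 75 nt. The submitters' processing notes name Bowtie2, bedtools and the genome build mm10, whereas their versions, the annotation, the strand setting of the counting and the normalization are not given in the sources used here. The values the authors deposited are on a log2 scale, each being log2 of a normalized count plus 1, as found from the values. Taken back from the log2 scale, they were multiples of 1.005 (Ctrl) and 0.995 (TSA) normalized counts per read. Of the values of at most 300 reads, 99.95% and 99.94% lay within 0.1 of a whole read, which gave the reads used for intervals.

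Samples were grouped by their treatment label. Changes are differences of the deposited values, and no p-value was computed because each group had 1 library. Scalings by library totals (with and without Rn45s), trimmed mean of M-values, median of ratios and upper quartile, pseudocounts of 0.1 and 5, other filters and thresholds were alternatives. The one without reads shared with Ccdc22 and the pairs of convergent genes were added after the data were seen. The steps were tested on simulated data. Python 3.11.15, numpy 2.4.6, scipy 1.17.1 and pandas 2.3.3 were used.

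The members and lists were chosen with earlier results of these data known. Named genes were the members, the other genes of the 4 families, from each list up to 4 genes with the highest and 4 with the lowest change among those with at least 50 reads in both libraries together, Il2ra, Prdm1, Nt5e, Crem and Zeb2, and the 5 genes nearest to Foxp3. All 12 Runx cofactors had a row, Tle5 under its older symbol Aes. The other experiments of the study were not analysed here. Some genes that the naming rule covers are not reported here.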

Additional observations from a re-analysis of the deposited data

How the results depend on the processing

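The changes of all 9 members tested kept their direction under the 5 other scalings and both pseudocounts except that of Ikzf2, which ran from -0.03 to 0.06. Foxp3 ran from -0.77 to -0.69 and Ikzf3 from 0.88 to 0.97. With library totals without Rn45s the changes were 0.24 for Foxo1, 0.24 for Ikzf1 and 0.25 for Runx3, and the interval of Cbfb held no change with and without Rn45s. With the reads of Ccdc22 taken off, an alternative added after the data were seen, Foxp3 had a change of -0.92. Without a filter on reads, Foxo3 entered by its deposited values, though its 3 and 1 reads lie at or under the floor and support no fold, and the counts of members were 1 past 2-fold lower (Foxo3) and 2 past 1.5-fold lower (with Foxp3). Of the 158 distinct genes of the lists, 153 were tested, and 15 (9.8%) passed 2-fold higher and 2 (1.31%) lower, beside 11.5% and 3.15% of all genes tested. The higher count was 25 at 1.5-fold, 8 where each library had 10 reads or more and 3 where normalized counts averaged 50 or more. The lower count was 9 at 1.5-fold, 1 with library totals, 1 also without Rn45s, and 5 without a filter. Over the listed members alone, which is a smaller sum, the shares in Ctrl and TSA were 99.9% and 99.96% for Foxo1, 60.4% and 60.8% for Ikzf1, 10.9% and 9.67% for Ikzf2, 8.91% and 14.9% for Ikzf3, and 19.7% and 14.6% for Ikzf4. Of all genes past 2-fold, 78.5% were higher, and 66.3% of those averaging 50 or more, where 419 passed in place of 1783, beside 747 where each library had 10 reads or more and 4017 without a filter. No scaling moved the median change of all genes by more than 0.1, the furthest being from 0.02 to 0.10.

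No paired analysis was possible because each group had 1 library and no test was made. No library was left out for the same reason. Counting error limits genes with few reads such as Foxo3, and the spread between cultures was not measured.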
